A study of Homo sapiens with 4 samples.

Results

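Caldesmon (CALD1), the 4 tropomyosin genes (TPM1, TPM2, TPM3 and TPM4) and the ERM genes ezrin (EZR), radixin (RDX) and moesin (MSN) were followed in RKO cells, an established, poorly differentiated human colon carcinoma line. The 8 genes were taken by symbol from a table of 13092 genes, and they were chosen with results of these libraries already known. Of the 8, 7 had a value in both libraries. RDX had no row in either table, so its level was not analysed. The first library came from RKO cells carrying the HADH-S overexpression genotype and the second from control RKO cells with the WT genotype. HADH encodes a mitochondrial dehydrogenase of fatty acid oxidation, and HADH-S is described in the study's title as a nuclear isoform of it. The labels give no vector, clone or time after introduction of HADH-S. The study compared these cells to look for target genes of HADH-S, and its chromatin immunoprecipitation and input libraries were not analysed here.

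Tropomyosins are coiled-coil proteins that lie end to end along actin filaments and set which motors and severing proteins reach them. Caldesmon binds actin, tropomyosin, myosin and calmodulin, and in muscle and non-muscle cells it inhibits the actomyosin ATPase. ERM proteins tie the cortical actin network to membrane proteins once they are opened by phosphoinositide binding and phosphorylation near their C terminus, and ezrin is the form best known from the microvilli of gut epithelium. Transcription of many genes of contractile actin bundles, caldesmon and tropomyosins among them, is known to respond to the serum response factor SRF with its actin-sensing MRTF coactivators.

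With 1 library per group there was no replicate check and no test between the groups, so each difference describes these libraries. The libraries held 6963608 reads over 12612 genes in HADH-S cells and 6773421 reads over 12501 genes in control cells. HADH, which checks the labels, was at 54.4 RPKM (reads per kilobase of transcript, relative to library size) in HADH-S cells and at 26.5 RPKM in control cells, a direction that matches the label. Of 10 colon epithelial markers, KRT18, EPCAM, KRT8 and CDX2 had a value, with a summed level of 111 RPKM in HADH-S cells and 106 RPKM in control cells. KRT18 made up most of it, at 93.8 RPKM in HADH-S cells and 91.7 RPKM in control cells. In HADH-S cells EPCAM was at 9.57, CDX2 at 4.37 and KRT8 at 2.81 RPKM, and in control cells at 8.20, 3.60 and 2.54 RPKM. CDH1, KRT19, KRT20, VIL1, CDX1 and LGALS4 had no row, so the labelled colon origin rested on 4 of the 10.

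Promoter sequence is shown for the 2 genes whose level was lower in HADH-S cells beyond counting error, CALD1 and TPM4. The RefSeq table (GRCh38.p14) matched all 8 genes by symbol, with 16 windows in all, 4 of them for CALD1 and 3 for TPM4, and the windows given are those of the set that held a searched motif. They run from 250 bases before to 50 bases after the start on the plus strand, 5′ to 3′, and capitals mark the matches. The first CALD1 window is chr7:134745217-134745516, the second is chr7:134779384-134779683, and the TPM4 window is chr19:16067288-16067587.
CALD1 window 1: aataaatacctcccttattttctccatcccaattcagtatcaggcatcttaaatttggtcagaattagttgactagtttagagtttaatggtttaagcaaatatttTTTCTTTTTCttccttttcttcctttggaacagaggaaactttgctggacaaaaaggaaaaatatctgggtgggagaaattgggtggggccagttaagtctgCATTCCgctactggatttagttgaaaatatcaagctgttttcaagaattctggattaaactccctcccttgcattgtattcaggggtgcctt
CALD1 window 2: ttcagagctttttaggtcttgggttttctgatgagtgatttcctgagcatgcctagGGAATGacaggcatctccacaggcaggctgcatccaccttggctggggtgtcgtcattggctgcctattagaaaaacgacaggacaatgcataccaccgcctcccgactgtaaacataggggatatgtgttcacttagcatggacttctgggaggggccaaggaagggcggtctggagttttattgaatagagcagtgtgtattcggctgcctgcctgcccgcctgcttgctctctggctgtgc
TPM4 window: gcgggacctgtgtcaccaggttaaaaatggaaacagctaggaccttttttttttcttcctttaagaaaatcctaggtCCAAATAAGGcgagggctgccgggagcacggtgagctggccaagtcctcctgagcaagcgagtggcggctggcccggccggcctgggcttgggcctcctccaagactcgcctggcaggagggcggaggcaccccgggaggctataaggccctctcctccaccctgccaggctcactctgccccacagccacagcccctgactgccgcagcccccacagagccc

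The motifs searched on both strands were the TEAD core GGAATG, the core of the interferon-stimulated response element (ISRE) and the CArG box bound by SRF, and no matches overlapped. GGAATG was found in 2 of the 4 CALD1 windows, from bases -42 and -194 relative to the start, and in 0 windows of the other members. That is 2 of the 16 member windows, beside 14.0% of all 35116 promoter windows in the RefSeq table. The ISRE core was found in 1 of the 16, CALD1 window 1, from base -144, and in 3.57% of all windows. The CArG box was found in 1 of the 16, the TPM4 window shown, from base -173, and in 1.29% of all windows. A match describes these letters and is not a measured binding site, and the files do not tell which start gave the reads.

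CALD1 was the member whose level differed most. It was at 10.1 RPKM in HADH-S cells (352 reads) and at 17.0 RPKM in control cells (577 reads). The level in HADH-S cells lay below that of the control, and the counting intervals of the levels, 9.06 to 11.2 RPKM in HADH-S cells and 15.6 to 18.4 RPKM in control cells, did not overlap. The ratio was 0.593, with a 95% interval from counting error alone of 0.518 to 0.679, which is a 1.69-fold lower level. The log2 ratio after adding 1 RPKM to each level was -0.70. In RNA from whole cultures, fewer cells carrying CALD1 transcript and less of it per cell cannot be told apart.

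Set against the 10331 genes tested, those with a mean of at least 1 RPKM over both libraries, CALD1 had the 15th lowest log2 value. CALD1 was called lower by the limit used here, a 1.5-fold difference on the log2(RPKM + 1) scale, as were 0.436% of the genes tested. After adding 5 RPKM in place of 1, its log2 value was -0.54, inside that limit. It was read deeply for a gene so far from the control. Of the 3459 tested genes with at least its 929 reads over both libraries, 1 had a log2 value as low, which was CALD1 itself, while 7 lay as far above 0. Of the 1734 genes whose mean level lay within 1.3-fold of its own, CALD1 again had the lowest value. Since CALD1 was chosen from this contrast, these ranks are a description.

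**Figure D1:**
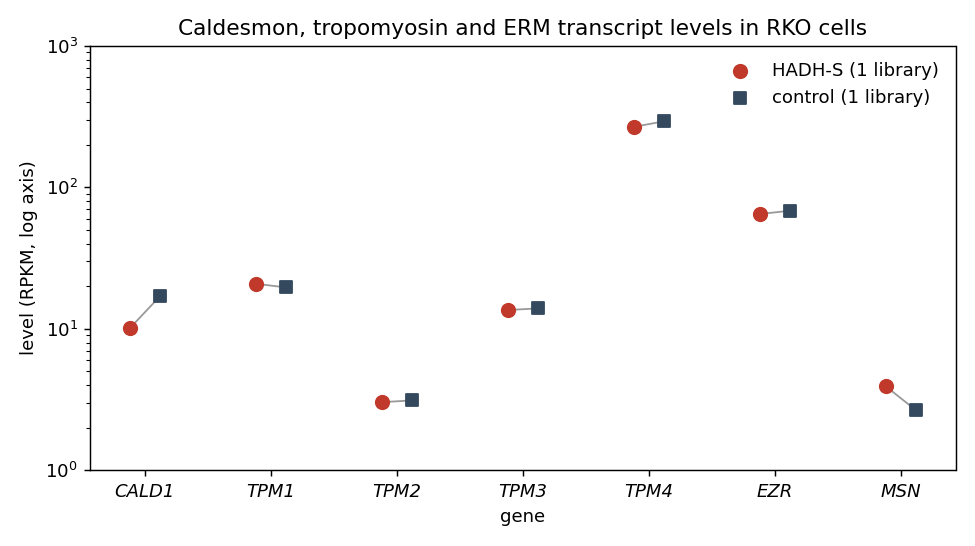
Level of each gene in RPKM (vertical log axis) in the HADH-S library (circles, left of each pair) and in the control library (squares, right), with 1 library per group and no error bars. CALD1 lay lower in HADH-S cells (10.1 against 17.0 RPKM), MSN lay higher (3.92 against 2.65 RPKM), and TPM4 was the most abundant member in both libraries.

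The CALD1 row was counted on a transcript of 5011 bases with 793 coding codons (ENST00000361675; gene on chromosome 7, from 134711499 to 134970729 in GRCh38.p14). That coding length is the heavy form of caldesmon, which is known from smooth muscle. Non-muscle cells are known to make light forms that lack a central stretch, and the single value per gene does not separate the forms. A shorter true transcript would raise the RPKM in both libraries by the same factor, and leave the ratio as it is, provided that both used the same forms. Markers of smooth muscle were near the limit of detection, with MYH11 at 4 reads in HADH-S cells and 3 in control cells and ACTA2 at 11 reads in HADH-S cells and 4 in control cells. DES, ACTG2, CNN1, LMOD1, SYNM and MYOCD had no row, and SMTN, a smoothelin gene also active outside muscle, was at 57.2 RPKM in HADH-S cells and 48.6 RPKM in control cells. The summed level of that list was 58.4 RPKM in HADH-S cells and 49.1 RPKM in control cells. Of the 9 fibroblast markers, 3 had any read (COL1A1, LUM and THY1), each with at most 1 read in a library, for a sum of 0.115 RPKM in HADH-S cells and 0.0553 RPKM in control cells.

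The tropomyosins, with which caldesmon shares the actin filament, stayed close to the control level. Their summed level was 305 RPKM in HADH-S cells and 330 RPKM in control cells, and the ratio of their summed reads was 0.927 (counting interval 0.894 to 0.961). TPM4, a tropomyosin of non-muscle filaments and of platelets, made up most of that sum. It was at 268 RPKM in HADH-S cells (4848 reads) and at 293 RPKM in control cells (5157 reads). The ratio was 0.914 (0.879 to 0.951) and the log2 value -0.13, so TPM4 lay below the control by more than counting error and far inside the 1.5-fold limit. A log2 value as low was held by 21.5% of the genes tested. Of the 104 genes whose mean level lay within 1.3-fold of its own, 7 were as low, TPM4 included. Ordered by level, TPM4 was the 216th of the tested genes in HADH-S cells and the 195th in control cells.

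The other tropomyosins did not differ beyond counting error. TPM1, which codes for tropomyosins of striated muscle and of stress fibres, was at 20.8 RPKM in HADH-S cells (262 reads) and at 19.6 RPKM in control cells (240 reads), a ratio of 1.06 (0.888 to 1.27). TPM3, the gene of slow muscle tropomyosin and of short cytoskeletal forms, was at 13.6 RPKM in HADH-S cells (668 reads) and at 13.9 RPKM in control cells (667 reads), a ratio of 0.974 (0.874 to 1.09). TPM2, the beta-tropomyosin gene of skeletal muscle, was at 3.03 RPKM in HADH-S cells and at 3.12 RPKM in control cells, with 28 reads in each library. Its ratio of 0.973 had an interval of 0.555 to 1.70, so at this depth a difference in TPM2 as large as that of CALD1 was not detectable. For TPM1 and TPM3 the intervals lay above the CALD1 ratio.

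The composition of the tropomyosin pool was close in both libraries, by shares of RPKM that rest on the transcript length of each row. TPM4 held 87.7% of the summed tropomyosin RPKM in HADH-S cells and 88.9% in control cells, TPM1 held 6.82% in HADH-S cells and 5.95% in control cells, TPM3 held 4.45% in HADH-S cells and 4.23% in control cells, and TPM2 held 0.992% in HADH-S cells and 0.945% in control cells. Relative to TPM4, the reads of TPM1 were 1.16 times those of the control, with an exact conditional interval of the ratio of ratios from 0.967 to 1.40. For TPM3 that value was 1.07 (0.949 to 1.20) and for TPM2 it was 1.06 (0.606 to 1.87). Each of these intervals included 1.

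Caldesmon relative to tropomyosin was lower in HADH-S cells. CALD1 stood at 3.30% of the summed tropomyosin RPKM in HADH-S cells and at 5.16% in control cells. The ratio of these ratios, from reads, was 0.640 (0.556 to 0.736). Against TPM1 alone, CALD1 stood at 48.4% of the TPM1 level in HADH-S cells and at 86.7% in control cells, a ratio of ratios of 0.559 (0.446 to 0.70). These within-library ratios do not depend on how the libraries were scaled against each other. They rest on the CALD1 value that chose the gene, and so describe the same difference.

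Among the ERM genes, ezrin carried nearly all of the measured level, and moesin was the member that lay higher in HADH-S cells. EZR was at 64.8 RPKM in HADH-S cells (1385 reads) and at 68.4 RPKM in control cells (1421 reads). Its ratio of 0.948 had an interval of 0.880 to 1.02, which includes 1. MSN, the ERM protein that dominates in leukocytes and endothelium, was at 3.92 RPKM in HADH-S cells (108 reads) and at 2.65 RPKM in control cells (71 reads). The level in HADH-S cells was the higher, by a ratio of 1.48 (1.09 to 2.03), while the counting intervals of the levels, 3.21 to 4.73 RPKM in HADH-S cells and 2.07 to 3.34 RPKM in control cells, overlapped at their ends.

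The log2 value of MSN was 0.43, below the 1.5-fold limit, and 3.92% of the genes tested had a value as high. Of the 999 genes whose mean level lay within 1.3-fold of its own, 82 were as high, MSN included. MSN stood at 6.04% of the EZR level in HADH-S cells and at 3.87% in control cells, a ratio of ratios of 1.56 (1.13 to 2.16). EZR plus MSN summed to 68.7 RPKM in HADH-S cells and 71.0 RPKM in control cells, and the ratio of their summed reads was 0.973 (0.905 to 1.05). Leukocyte and endothelial markers, whose cells are rich in moesin, mostly had no value. PTPRC, CD3E and ITGAM of the leukocyte list and PECAM1, CDH5, VWF, KDR and TEK of the endothelial list had no row. The 3 leukocyte-list genes with a value (CD68, LCP1 and CORO1A) summed to 707 RPKM in HADH-S cells and 646 RPKM in control cells. The ratio of HADH-S to control cells was 1.23 for CD68 (1.18 to 1.28) and 0.892 for LCP1 (0.861 to 0.924), so these 2 did not move alike. CORO1A had a ratio of 0.919, with an interval (0.677 to 1.25) that included 1. EGFL7, the 1 endothelial-list gene with a value, was at 58.6 RPKM in HADH-S cells and 48.6 RPKM in control cells. Their part in the MSN value was not tested.

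**Figure D2:**
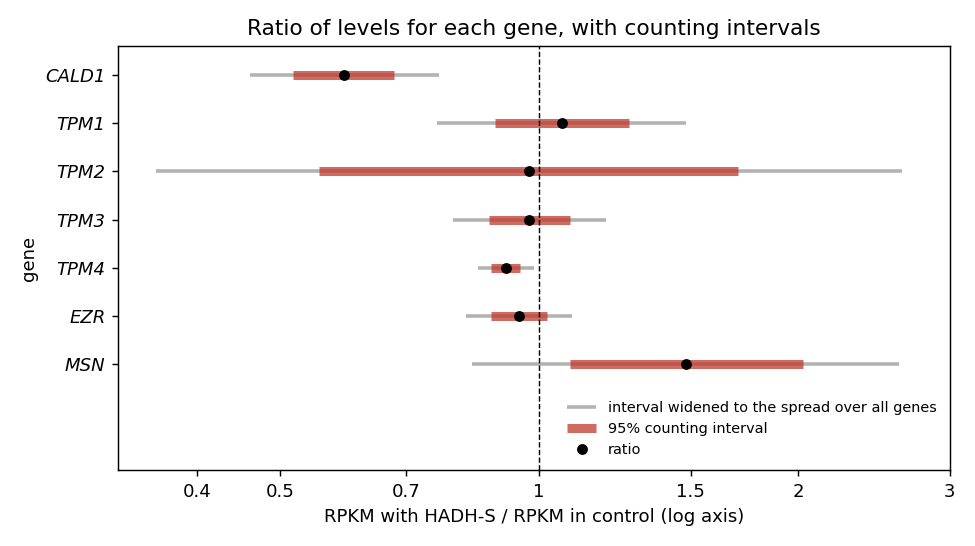
Ratio of RPKM in HADH-S cells to RPKM in control cells for the 7 measured genes (horizontal log axis, black points), with the 95% counting interval (thick bars). Thin bars show a second 95% interval, a normal approximation on the log scale, widened 1.91 times to the spread seen over all genes. CALD1 and TPM4 lay below 1 on both intervals, and MSN lay above 1 on the counting interval (1.09 to 2.03) but not on the widened one (0.836 to 2.62).

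Taking the 7 measured genes together, 1 was lower and 0 were higher by the 1.5-fold limit, which 0.436% of the tested genes passed downward and 1.47% upward. The counting interval of the ratio lay below 1 for 2 of the 7 (CALD1 and TPM4), against 11.6% of the tested genes, and above 1 for 1 of the 7 (MSN), against 13.8% of the tested genes. The other 4 had intervals that included 1. The median log2 value of the 7 was -0.04, beside 0.01 for all genes tested, and the values ran from -0.70 to 0.43. Over all tested genes, the spread of the log ratios was 1.91 times the one expected from counting. With intervals widened by that factor, CALD1 (0.461 to 0.764) and TPM4 (0.849 to 0.985) stayed below 1, as did 1.95% of the tested genes, and MSN no longer lay above 1, as 2.68% of them did. The same factor was used for all genes, so widened intervals still narrow with depth. That bears most on TPM4, the most deeply read member, and variation between cultures was not measured.

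**Figure D3:**
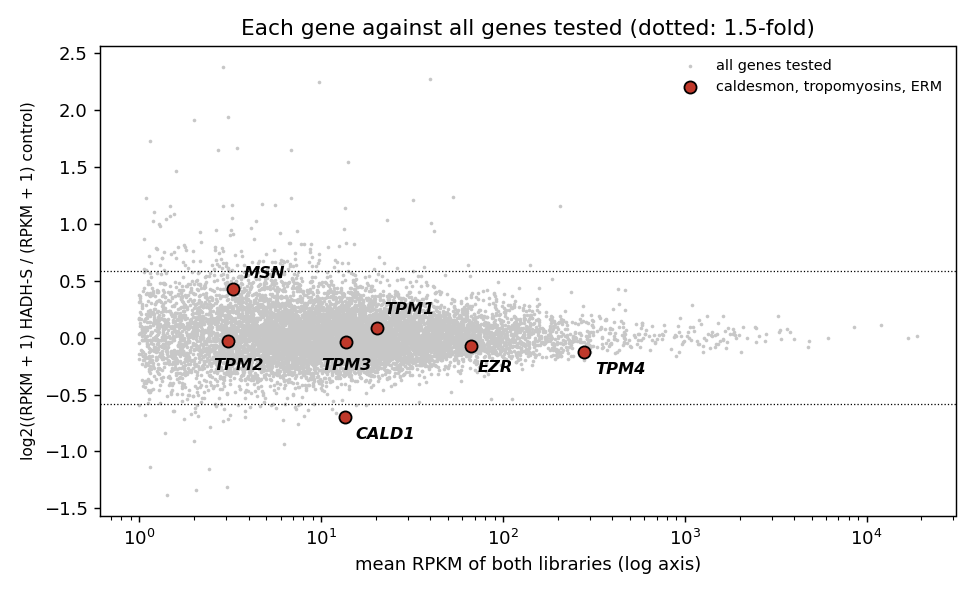
Mean RPKM of both libraries (horizontal log axis) against the log2 ratio of RPKM + 1, HADH-S over control, for the 10331 genes tested (grey) and the 7 measured members (red). CALD1, at -0.70, lay below the lower dotted line at 1.5-fold and under the genes of like level, and the other members lay between the lines.

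The order of levels differed between the libraries around CALD1 and MSN. With HADH-S the order was TPM4, EZR, TPM1, TPM3, CALD1, MSN and TPM2. In the control it was TPM4, EZR, TPM1, CALD1, TPM3, TPM2 and MSN. Neighbours whose counting intervals overlapped were MSN and TPM2 in both libraries, and TPM1 and CALD1 in control cells (TPM1 from 17.2 to 22.3 RPKM). CALD1 and TPM3 did not overlap in either library, as TPM3 spanned 12.6 to 14.6 RPKM in HADH-S cells and 12.9 to 15.0 RPKM in control cells. This order also rests on the transcript length of each row, which counting intervals do not cover. By reads, TPM3 (668 in HADH-S cells, 667 in control cells) lay above TPM1 (262 and 240) and CALD1 (352 and 577). TPM1 stood 2.06 times above CALD1 in HADH-S cells and 1.15 times above it in control cells. EZR stood 16.6 times above MSN in HADH-S cells and 25.8 times above it in control cells.

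The position of each gene and the transcript used for its length bear on these levels. TPM1 lies on chromosome 15 from 63042747 to 63071915 and was counted on 1807 bases with 326 coding codons, and TPM2 lies on chromosome 9 from 35681993 to 35690056 and was counted on 1327 bases with 284 codons. TPM3 lies on chromosome 1 from 154155308 to 154192100, with 7064 bases and 285 codons, and TPM4 lies on chromosome 19 from 16067538 to 16103002, with 2598 bases and 284 codons. EZR lies on chromosome 6 from 158765748 to 158819368, with 3068 bases and 586 codons, and MSN lies on chromosome X from 65588377 to 65741931, with 3960 bases and 577 codons. Tropomyosin genes are known to give several proteins through alternative exons, and some of them also through alternative starts. The values sum whatever forms share a row. RefSeq lists 9 pseudogenes named for TPM3, 3 for TPM4, 1 for MSN and 1 for EZR, none of which had a value here, so the assignment of reads between these genes and their copies is uncertain. Non-coding genes overlap CALD1 (LOC124901750 and TUBB3P2), TPM1 (TPM1-AS), TPM3 (RN7SL431P) and EZR (EZR-AS1), and without a stated strand setting their reads cannot be told apart.

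The surrounding genes of the actin cytoskeleton were taken from 4 lists, which hold 87 genes other than the members. Of these, 76 were tested, and 0 were higher and 0 lower by the 1.5-fold limit. Their median log2 value was 0.01, the same to 2 decimals as that of all genes tested, and they ran from -0.33 (TMSB4X) to 0.52 (PIP5K1C). None of the 76 lay as low as CALD1, and 2 lay as high as MSN, namely PIP5K1C and ICAM2. By counting interval, 14 of the 76 (18.4%) were above 1 and 11 (14.5%) were below 1, beside 13.8% and 11.6% of all genes tested. Counting intervals narrow as reads increase, so these shares, and those of each list below, also depend on how deeply the genes were read. The median gene with a value had 206 reads in HADH-S cells and 200 in control cells.

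**Figure D4:**
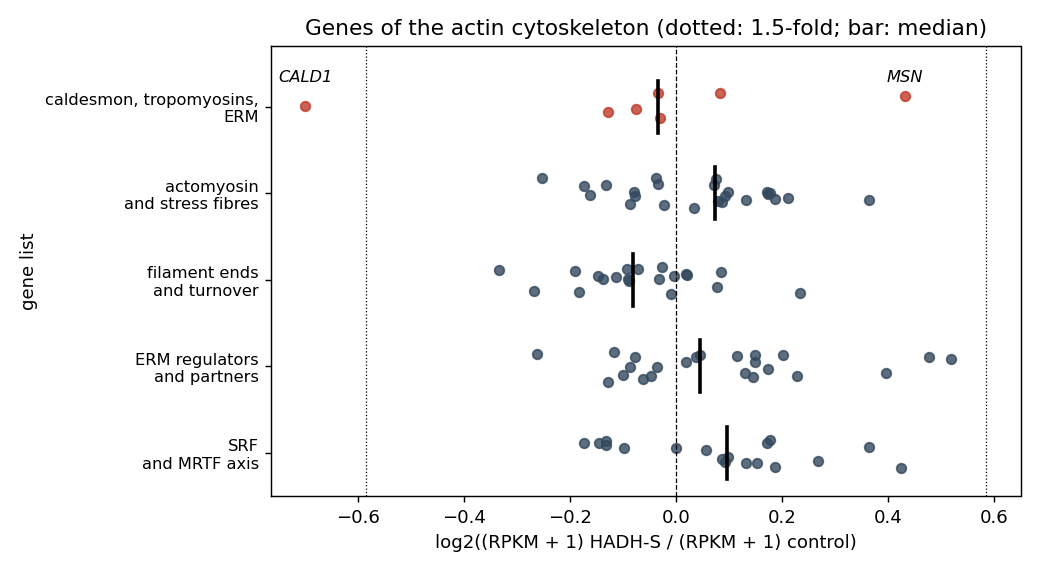
The log2 ratio of RPKM + 1, HADH-S over control, of each tested gene (horizontal axis; mean of at least 1 RPKM) for the caldesmon, tropomyosin and ERM genes (top, red) and for 4 lists of actin cytoskeleton genes with those members left out (blue). Vertical scatter within a row only separates the points. CALD1 lay beyond the dotted 1.5-fold line, and the tested genes of the lists lay between -0.33 and 0.52.

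Genes of actomyosin and stress fibres, the filaments on which caldesmon and tropomyosin sit, had a median log2 value of 0.07. Of 24 tested, 0 passed the 1.5-fold limit either way. The counting interval was above 1 for 7 genes (29.2%, beside 13.8% of all genes tested) and below 1 for 2 (8.33%, beside 11.6%). With widened intervals 3 of the 24 (ACTB, ACTG1 and ZYX) lay above 1 and 0 below, beside 2.68% and 1.95% of all genes tested. ZYX, coding for the focal adhesion protein zyxin, was at 102 RPKM in HADH-S cells and at 79.2 RPKM in control cells (ratio 1.29, interval 1.20 to 1.39). PDLIM5, an adaptor at the actin cytoskeleton, was at 4.80 RPKM in HADH-S cells and at 5.91 RPKM in control cells (ratio 0.813, interval 0.673 to 0.981). MYH14, a non-muscle myosin heavy chain gene, was at 2.16 RPKM in HADH-S cells and at 1.73 RPKM in control cells, with an interval of the ratio (0.925 to 1.69) that included 1. The cytoplasmic actins, chosen after their values were seen, were both slightly higher in HADH-S cells. ACTB was at 1102 RPKM in HADH-S cells and at 1033 RPKM in control cells (ratio 1.07, interval 1.04 to 1.09), and ACTG1 was at 1000.4 RPKM in HADH-S cells and at 888 RPKM in control cells (ratio 1.13, interval 1.10 to 1.15). The near-identical sequences of these actins leave the split of reads between them uncertain.

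Genes of filament ends and turnover had a median of -0.08. Of 20 tested, 0 passed the 1.5-fold limit, 7 had a counting interval below 1 (35.0%, beside 11.6% of all genes tested) and 0 had one above 1. The 7 were the capping protein subunits CAPZA1 and CAPZA2, the Arp complex subunits ACTR2, ACTR3 and ARPC2, the cyclase-associated protein gene CAP1 and the formin gene DIAPH3. CAPZA1 was at 214 RPKM in HADH-S cells and at 244 RPKM in control cells (ratio 0.876, interval 0.836 to 0.917), and DIAPH3 at 11.7 RPKM in HADH-S cells and at 14.3 RPKM in control cells (ratio 0.818, interval 0.713 to 0.939). With widened intervals 1 of the 20, CAPZA1, stayed below 1, read deeply at 3513 reads in HADH-S cells and 3902 in control cells. Apart from DIAPH3, these genes were named after seeing their values. The gene with the largest difference, TMSB4X, which codes for an actin monomer-binding thymosin, was at 6.33 RPKM in HADH-S cells and at 8.24 RPKM in control cells, with an interval of 0.560 to 1.05. GSN, the severing protein gelsolin, was at 9.51 RPKM in HADH-S cells and at 7.95 RPKM in control cells (interval 0.955 to 1.5).

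Regulators and partners of ERM proteins had a median of 0.04, with 0 of 23 tested past the 1.5-fold limit. By counting interval, 6 of the 23 were above 1 (26.1%, beside 13.8% of all genes tested) and 1 was below 1 (4.35%, beside 11.6%). With widened intervals 0 of the 23 lay on either side, beside 2.68% of all genes above and 1.95% below. PIP5K1C, a kinase that makes the phosphoinositide by which ERM proteins are opened, was at 5.34 RPKM in HADH-S cells (109 reads) and at 3.42 RPKM in control cells (68 reads), a ratio of 1.56 (1.14 to 2.14). NHERF2 (row symbol SLC9A3R2), a scaffold that binds the ERM head domain, was at 13.9 RPKM in HADH-S cells and at 10.3 RPKM in control cells (ratio 1.35, interval 1.09 to 1.67). ICAM2, an adhesion molecule whose tail binds ERM proteins, was at 7.32 RPKM in HADH-S cells and at 4.98 RPKM in control cells (interval 0.994 to 2.19). STK10, a kinase of the ERM C terminus named after seeing its values, had a ratio of 1.19 (1.03 to 1.38).

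The list of the SRF and MRTF axis holds CALD1, TPM1, TPM2 and TPM4 themselves. Of its 22 tested genes 1, CALD1, was lower by the 1.5-fold limit and 0 were higher. Without those 4 members, 18 genes were tested, with a median of 0.10 and a lowest log2 value of -0.17. Of the 18, 6 counting intervals were above 1 (33.3%, beside 13.8% of all genes tested) and 1 was below (5.56%, beside 11.6%). Of those above 1, all but MRTFA were already counted on the actomyosin list, namely ACTB, ACTG1, MYH9, FLNA and ZYX. MYH9 and FLNA are named after seeing their values. With widened intervals 3 of the 18 stayed above 1, again ACTB, ACTG1 and ZYX, and 0 lay below, beside 2.68% and 1.95% of all genes tested. SRF, a gene picked after seeing its values, was at 18.6 RPKM in HADH-S cells and at 17.8 RPKM in control cells (interval of the ratio 0.921 to 1.18). MRTFA, a coactivator of SRF, was at 3.46 RPKM in HADH-S cells (101 reads) and at 2.32 RPKM in control cells (66 reads), a ratio of 1.49 (1.08 to 2.06), while its paralog MRTFB, likewise picked after seeing its values, was at 3.56 RPKM in both libraries. CCN2, a matricellular target of the axis, was at 2.03 RPKM in HADH-S cells and at 1.52 RPKM in control cells, with an interval from 0.767 to 2.36.

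The genes closest to CALD1 in their levels over the 2 libraries were STARD4, HMGCS1 and MIER3, by Euclidean distance of log2(RPKM + 1). STARD4, a sterol carrier gene, lay at a distance of 0.09, HMGCS1, an enzyme gene of the mevalonate pathway, at 0.12, and the transcriptional regulator gene MIER3 at 0.21. Their ratios were 0.603 (0.522 to 0.696), 0.663 (0.581 to 0.755) and 0.739 (0.649 to 0.840), each nearer to 1 than that of CALD1. The genes closest to MSN were HOXC5 (distance 0.01), PML (0.02) and FAM214A (0.03), with ratios of 1.49 (0.935 to 2.40), 1.46 (1.13 to 1.91) and 1.44 (1.05 to 2.0). With 2 libraries this likeness says only that the level and the difference were alike.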

How the data were processed

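RNA of 2 RKO libraries, 1 with HADH-S and 1 control, was used. The authors deposited 1 table per library with 1 RPKM value per gene, per the file headers, on the transcript length given in each row. Total RNA was isolated with Trizol for mRNA libraries, per the labels' protocols. Per the submitters' processing notes, shared by all samples, fastp 0.23.2, SAMtools 1.9 and GRCh38 were used. For RNA, aligner, counter and strand setting: not given in the sources used here.

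RPKM times transcript length gave whole reads for 100% of values in each library (tolerance 0.01 reads). A gene listed in 1 table only was taken as having 0 reads in the other. Genes averaging 1 RPKM or more were compared by the log2 ratio of RPKM + 1, HADH-S over control, against a limit of 1.5-fold, a scale that understates low genes. Ratios carry exact conditional (Clopper-Pearson) 95% intervals and levels exact Poisson ones. They cover counting error only, as reads lacking molecular identifiers need not be separate molecules. A second interval, a normal approximation on the log scale, was widened by the ratio of the spread of log ratios over all genes to the spread from counting. This factor was the same at every depth.

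Members and lists were chosen with earlier results of these data known. Named were the members, HADH, the 3 genes of each list with the largest absolute log2 value, and the 3 nearest in level to CALD1 and to MSN. Cell type markers are named from their own lists, and other genes are marked as chosen after seeing their values. Steps were tested on simulated data (Python 3.11.15, scipy 1.17.1). Those data held counting error only, without the wider spread seen in these libraries. A planned comparison of protein sequences was not made. Alternatives were pseudocounts, scaling, low-value filters, a length trend and a 2-fold limit.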

Additional observations from a re-analysis of the deposited data

How the results depend on the processing

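No replicate could be left out. No paired analysis was possible because each group held 1 library. Of 229 values over 27 results, 212 stayed within a tolerance and 17 did not, and 0 called values turned direction. The tolerance was the half-width of the gene's counting interval on the log2 scale (for a list, the median half-width), or 1.5 times for a count. CALD1 stayed between -0.75 and -0.54 on the log2 scale, MSN between 0.22 and 0.55, TPM4 between -0.15 and -0.13, EZR between -0.10 and -0.07, and HADH between 0.91 and 1.03. TPM3 lay between -0.06 and 0.01, so its sign depended on the setting.

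With a pseudocount of 5, and with a limit of 2-fold, 0 members and 0 genes of the SRF and MRTF list were lower, against 1 each as reported, since CALD1 was at -0.54 in the first case. Larger pseudocounts shrink log2 values by construction. Widening the intervals left 0 members above 1. A pseudocount of 0.1 placed 1 ERM regulator above the limit, and without a filter 1 actomyosin gene was above it. Over all genes, the 152 higher and 45 lower became 301 and 123 with a pseudocount of 0.1, 28 and 2 with a pseudocount of 5, 66 and 17 at a mean of at least 5 RPKM, and 31 and 5 at 2-fold. They became 212 higher and 77 lower with a pseudocount of 0.5, and 191 higher and 85 lower without a filter.

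Depth limits TPM2 most, at 28 reads per library, and MSN, at 108 reads in HADH-S cells and 71 in control cells. With a single library per group, differences between cultures and an effect of HADH-S cannot be told apart.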
